A study of Mus musculus with 7 samples.

Results

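Nuclear oxidative phosphorylation genes encode the subunits of the respiratory chain and ATP synthase that are not made from mitochondrial DNA. They were taken by gene symbol: protein-coding genes whose names start with Nduf (assembly factors left out), Uqcr, Cox4 to Cox8 or Atp5, with the 4 Sdh genes, Cyc1 and Cycs. The rule found 90 genes in RefSeq, and 89 of them had a row among the 27179 genes counted. By complex, 38 belonged to complex I, 4 to complex II, 9 to complex III, 20 to complex IV and 17 to complex V, and Cycs encodes cytochrome c. Ndufa4 and Ndufa4l2 were placed in complex IV, where the Ndufa4 protein sits.

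RNA was sequenced from CD8 dendritic cells of C57BL/6 mice, sorted by flow cytometry, in 7 libraries. CpG CD103 high cells (n = 2) carried the treatment label CpG, a DNA ligand of Toll-like receptor 9. CD103 low (n = 2) and CD103 negative cells (n = 3) were untreated. All cells were sorted and all mice were of the same strain. The labels state no tissue, age, dose or time. Treatment with CpG and high CD103 cannot be told apart, since the same 2 libraries carry both. The labels date both CpG CD103 high libraries and CD103 negative replicates 1 and 2 to 2012, and both CD103 low libraries and CD103 negative replicate 3 to 2013, without saying what was done then. Replicates are called biological in the design text.

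Oxidative phosphorylation couples electron flow to ATP synthesis in the inner mitochondrial membrane. Complex I takes electrons from NADH and complex II takes them from succinate. Complex III passes them to cytochrome c, complex IV passes them to oxygen, and complex V uses the resulting proton gradient to make ATP. Nuclear and mitochondrial genes both supply subunits of complexes I, III, IV and V, while complex II is wholly nuclear. In dendritic cells, Toll-like receptor stimulation is known for a shift of metabolism towards glycolysis.

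Itgae, which encodes CD103, followed the labels: it had 1019 and 992 CPM in CpG CD103 high, 346 and 375 CPM in CD103 low, and 61.7, 62.7 and 54.3 CPM in CD103 negative libraries. CPM are counts per 1000000 reads counted on genes, with library sizes scaled by the TMM method. Library totals ran from 4474211 to 4629181 counts. All 10 markers of conventional type 1 dendritic cells were detected in every library, summing to 11662 and 11127 CPM in CpG CD103 high, 9282 and 9524 CPM in CD103 low, and 8549, 8748 and 8021 CPM in CD103 negative libraries. Of these, 6 were called higher and 0 lower in CpG CD103 high than in CD103 negative cells, from Tlr3 (1.01) to Ly75 (0.37) on the log2 scale. Among all tested genes 14.5% were called higher and 11.8% lower in that comparison, which also stands beside the marker counts below. Markers of other cells were few but moved with group or date. Erythroid markers summed to 22.4 and 24.9 CPM in CpG CD103 high, 14.5 and 5.52 CPM in CD103 low, and 1.98, 1.29 and 3.19 CPM in CD103 negative libraries. None of the 4 could pass a filter on low counts through CD103 negative libraries, so no test is given for them. Neutrophil markers summed to 19.1 and 12.8 CPM in CpG CD103 high and to between 0 and 2.80 CPM in the untreated libraries. The 1 of 4 that was kept passed that filter only through CpG CD103 high, so no test is given for it. B cell markers summed to 9.32 and 9.86 CPM in CpG CD103 high and to between 50.2 and 73.3 CPM in the untreated libraries. Of the 5, 2 were tested and called lower. Macrophage and monocyte markers summed to 162 and 99.3 CPM in CpG CD103 high and to between 200 and 354 CPM in untreated libraries, with 1 of 5 called higher and 2 lower. CD103 negative replicate 3 had 51.3 CPM of conventional type 2 dendritic cell markers, against 4.93 to 20.7 CPM elsewhere, and 217 CPM of plasmacytoid markers, against 133 to 170 CPM elsewhere. Of these, 2 of 3 and 2 of 4 tested were called higher in that library than in replicates 1 and 2, against 2.16% of all tested genes. In CpG CD103 high, 2 of 3 tested type 2 markers (Irf4 and Cd209a) and 1 of 4 tested plasmacytoid markers (Tcf4) were called lower than in CD103 negative cells. Mgl2, a type 2 marker that was not tested, went the other way. CpG CD103 high replicates 1 and 2 had 2.22 and 3.36 CPM of Mgl2, while no untreated library exceeded 0.230 CPM. T cell markers, none of which was tested, summed to 29.4 CPM in CD103 low replicate 2 and to at most 2.50 CPM elsewhere. NK cell markers summed to at most 3.36 CPM. The part of these cells in the results below was not tested.

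Of the 89 genes, 78 passed a filter on low counts, as did 10863 genes in all. By complex these were 36 of complex I, 4 of complex II, 8 of complex III, 13 of complex IV, 16 of complex V and cytochrome c. The 11 that did not pass were Ndufb4, Ndufb4c, Uqcr11, Cox4i2, Cox6a2, Cox7a1, Cox7b2, Cox8b, Cox8c, Ndufa4l2 and Atp5g2. Uqcr11, Cox7b2, Cox8b and Cox8c had no count in any library, where 3 counts would have given 0.638 to 0.690 CPM. Many of these genes have processed copies elsewhere in the genome, and how reads that map to several places were counted is not given. Of 87 members with a transcript, 38 shared at least 1 window of 50 bases with another gene. Levels of Atp5l (68.5% of its windows shared), Atp5h (47.9%), Uqcrb (43.2%), Ndufb4 (37.0%) and Cycs (28.5%) are therefore uncertain. So are the low levels of Cox7c (27.9%), Atp5g2 (11.1%), Uqcr11 (10.9%) and Cox7a2, although no window of Cox7a2 was shared with an annotated gene.

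Promoter sequences are shown for the 3 genes of ATP synthase subunit c, of which Atp5g1 and Atp5g3 were called by date and Atp5g2 was not tested, and for Ndufs6, called in 3 comparisons. Subunit c forms the proton-driven ring of complex V, and its genes encode the same mature protein. Each sequence is the 250 bases before the RefSeq transcript start (GRCm38.p6), read 5′ to 3′ on the gene's strand, which is the minus strand in all 4. Capitals mark a match to NRF1 (GCGCNTGCG) or ERRA (TCAAGGTCA), motifs of factors that act on mitochondrial genes. The windows lie at chr11:96075632-96075881 for Atp5g1, chr15:102671048-102671297 for Atp5g2, chr2:73911327-73911576 for Atp5g3 and chr13:73328483-73328732 for Ndufs6. The Atp5g3 window lies wholly within the gene's listed span, chr2:73908447-73912464. The Atp5g1 window lies partly within its own, chr11:96072793-96075694. Bases before the outer ends of these spans were not searched as starts.
Atp5g1: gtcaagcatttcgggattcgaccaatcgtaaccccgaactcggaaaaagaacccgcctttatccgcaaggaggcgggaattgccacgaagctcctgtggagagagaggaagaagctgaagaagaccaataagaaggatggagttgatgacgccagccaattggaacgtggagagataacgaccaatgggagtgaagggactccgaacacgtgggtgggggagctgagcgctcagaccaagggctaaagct
Atp5g2: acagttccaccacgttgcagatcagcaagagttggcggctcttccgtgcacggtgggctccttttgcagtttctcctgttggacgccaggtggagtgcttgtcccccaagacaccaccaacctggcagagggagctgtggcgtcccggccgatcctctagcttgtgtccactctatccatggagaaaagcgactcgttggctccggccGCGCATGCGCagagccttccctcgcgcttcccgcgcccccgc
Atp5g3: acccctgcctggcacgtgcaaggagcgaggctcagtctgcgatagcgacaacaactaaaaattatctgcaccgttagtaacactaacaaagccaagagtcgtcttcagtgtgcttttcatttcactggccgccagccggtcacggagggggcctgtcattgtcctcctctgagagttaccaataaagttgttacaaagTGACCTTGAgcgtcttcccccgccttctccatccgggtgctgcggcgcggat
Ndufs6: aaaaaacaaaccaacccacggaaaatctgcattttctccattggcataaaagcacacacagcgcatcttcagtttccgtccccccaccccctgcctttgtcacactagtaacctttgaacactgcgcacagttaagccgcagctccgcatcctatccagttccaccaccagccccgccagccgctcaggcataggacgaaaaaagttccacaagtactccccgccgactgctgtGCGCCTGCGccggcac

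Counting the first transcribed base as 0, the NRF1 match began at base -42 in Atp5g2 and at base -16 in Ndufs6, and the ERRA match at base -52 in Atp5g3. Atp5g3 had a further NRF1 match from base 12, and Ndufs6 a YY1 match (AANATGGCG) from base 33. The window of Atp5g1 held none of the motifs searched. Both strands were searched in windows of 300 bases, 250 before and 50 after the start, overlapping matches of 1 motif were counted as 1, and no matches of different motifs overlapped among the members. NRF1 occurred in 23 of 71 members with a sequence (32.4%) and in 8.95% of 17492 promoters. Cycs, a classical target of the NRF1 protein, had a match from base -61. The ETS motif (CCGGAAGT) occurred in 5 members (7.04%, against 5.29% of promoters), YY1 in 8 (11.3%, against 3.30%) and ERRA in 2 (2.82%, against 0.332%). No promoter sequence was listed for Cox6c or Uqcrc2.

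Levels within complexes were compared per length, as mean CPM per 1000 bases over the 7 libraries. Atp5b, the catalytic beta subunit of complex V, was highest at 520 CPM per 1000 bases. Cox4i1, a regulatory subunit of complex IV, had 473, Ndufa3 of complex I had 267, Uqcrq of complex III had 196 and Sdhb, the iron-sulfur subunit of complex II, had 121 CPM per 1000 bases. Cytochrome c was listed at only 2.60 CPM per 1000 bases, with 76 other genes sharing some of its sequence. Each of these was the most abundant member of its complex on this scale.

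**Figure D1:**
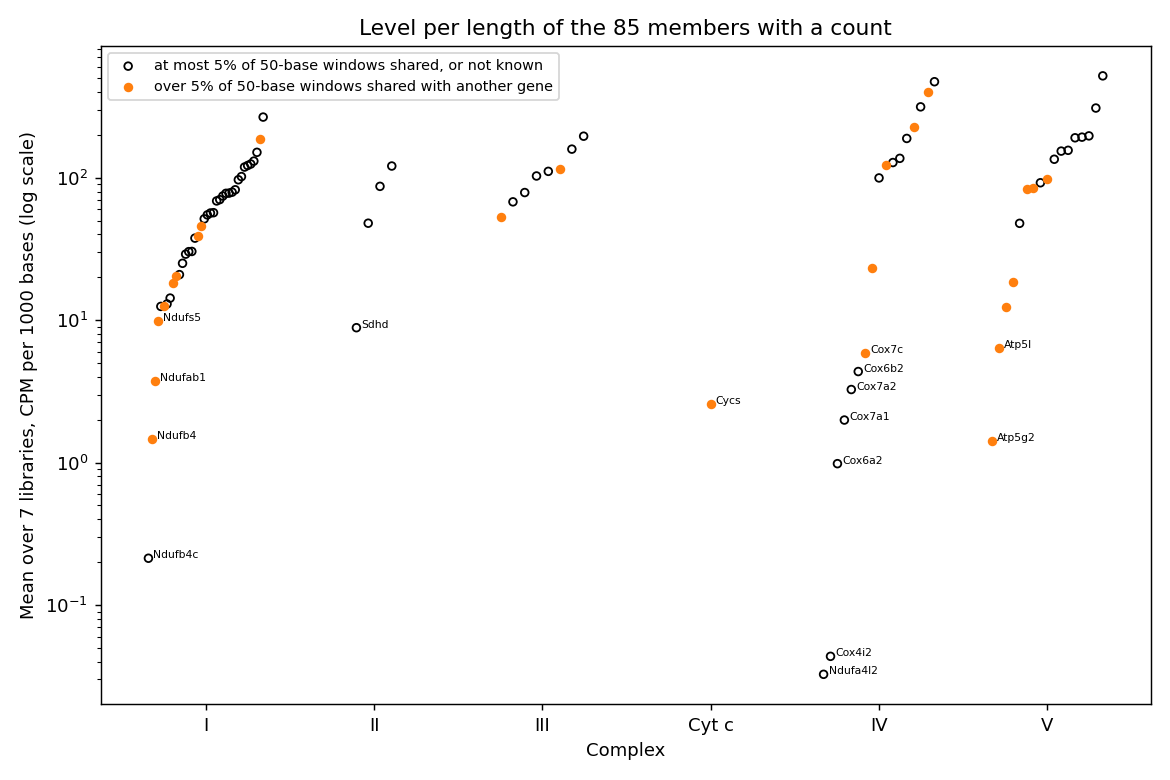
Mean level per length over 7 libraries, in CPM per 1000 bases on a log scale, for each of the 85 members with a count, ordered by level within its complex. Atp5b at 520 and Cox4i1 at 473 were highest, and named points lay under 10 CPM per 1000 bases.

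Among paralogues of complex IV, Cox4i1, Cox6a1, Cox6b1, Cox8a and Ndufa4, known from many tissues, were the abundant forms. Cox4i1 had 387 and 321 CPM in CpG CD103 high, 274 and 272 CPM in CD103 low, and 381, 362 and 250 CPM in CD103 negative libraries, while Cox4i2 had 0.222 CPM in 1 library and 0 in the others. Cox6a1 ran from 147 to 302 CPM and Cox6a2 from 0 to 2.98 CPM. Cox6b1 ran from 65.3 to 122 CPM and Cox6b2 from 0.896 to 4.09 CPM. Cox8a ran from 140 to 201 CPM, with Cox8b and Cox8c at 0. Ndufa4 ran from 48.9 to 84.7 CPM and Ndufa4l2 from 0 to 0.220 CPM. These pairs were ordered alike in every library. Cox7a2l, which acts in joining complexes III and IV, ran from 198 to 323 CPM, whereas Cox7a2, of the canonical subunit, ran from 1.12 to 4.77 CPM, a level that is uncertain as said above, and Cox7a1 from 0.454 to 1.11 CPM. Of the subunit c genes, Atp5g3 ran from 94.9 to 197 CPM, Atp5g1 from 3.62 to 29.3 CPM and Atp5g2, also uncertain, from 0.647 to 1.15 CPM.

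The members summed to 7694 and 7100 CPM in CpG CD103 high, 7215 and 7247 CPM in CD103 low, and 8261, 8412 and 6934 CPM in CD103 negative libraries. CD103 negative replicates 1 and 2, of 2012, were the highest, and replicate 3, of 2013, was the lowest of all 7. Complex V summed to 2775 and 2721 CPM in CpG CD103 high, 2751 and 2753 CPM in CD103 low, and 3129, 3307 and 2765 CPM in CD103 negative libraries. Complex I summed to 2043 and 1855 CPM in CpG CD103 high, 1868 and 1920 CPM in CD103 low, and 2164, 2224 and 1823 CPM in CD103 negative libraries. In both complexes CD103 negative replicates 1 and 2 were again the highest. Complex IV summed to 1590 and 1317 CPM in CpG CD103 high, 1340 and 1357 CPM in CD103 low, and 1556, 1508 and 1189 CPM in CD103 negative libraries, so that its groups overlapped. Complex II ran from 417 to 489 CPM and complex III from 734 to 933 CPM. In each of complexes II, III and V the 2 highest libraries were CD103 negative replicates 1 and 2. Fewer cells carrying these RNAs and less RNA per cell cannot be told apart.

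**Figure D2:**
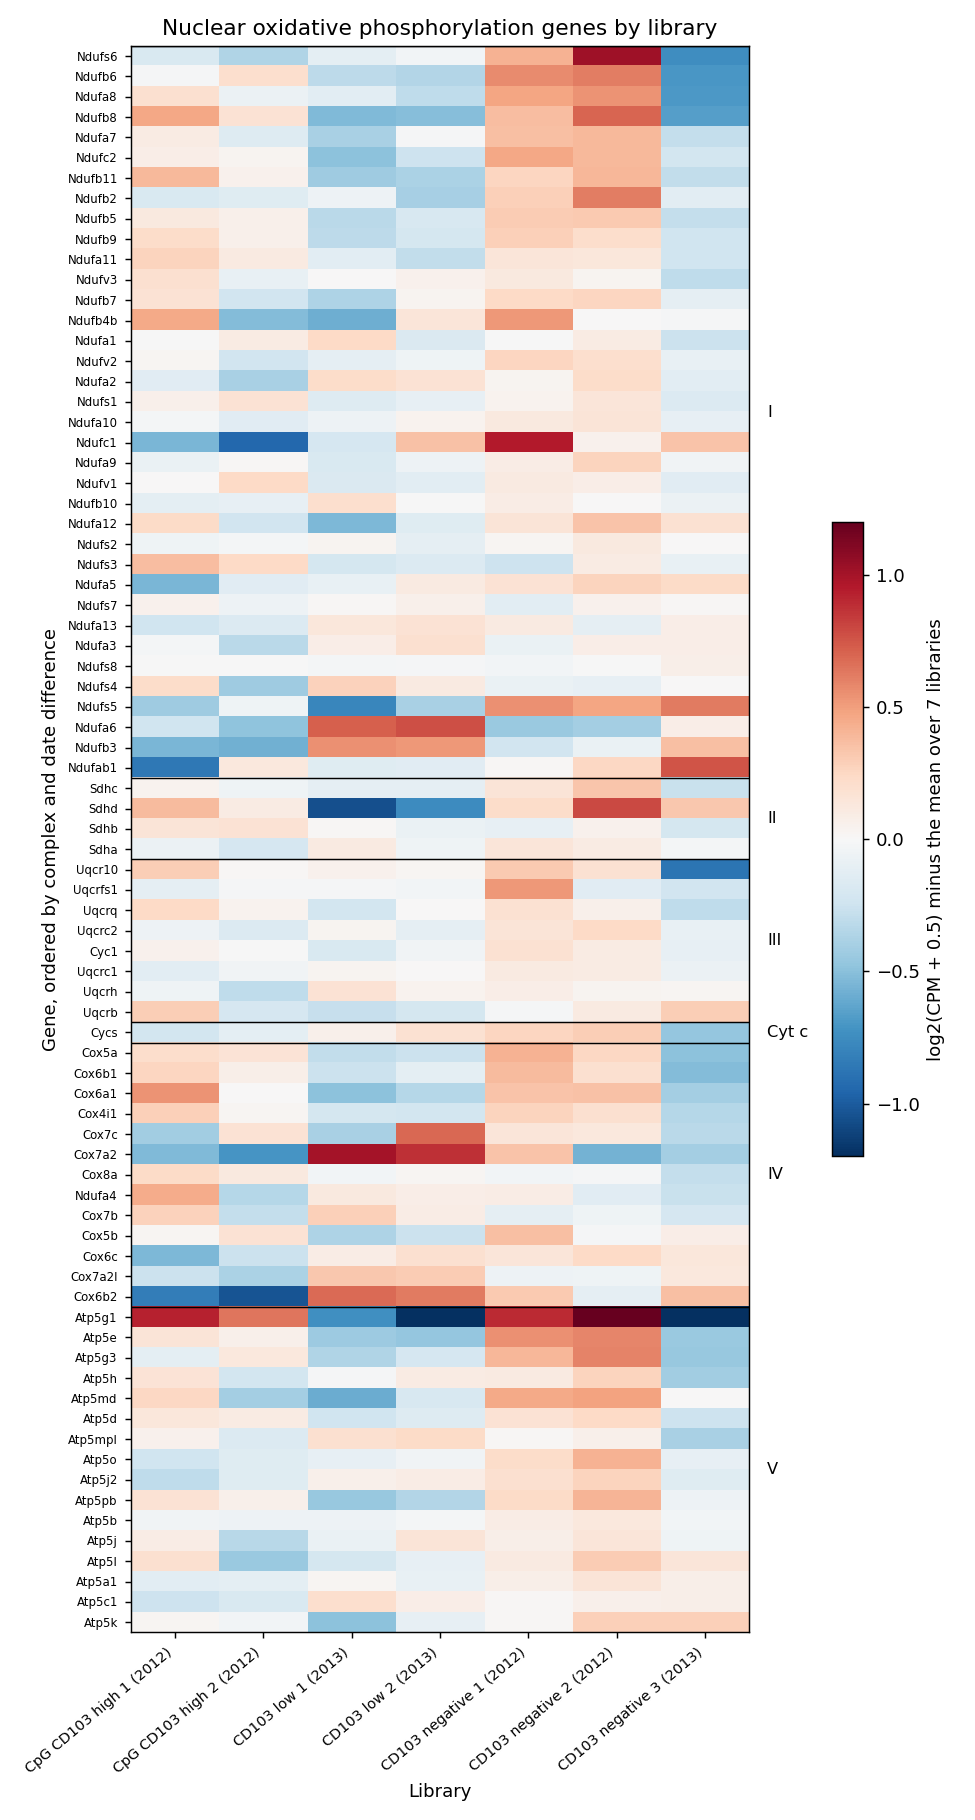
Each row is 1 of 78 tested members, grouped by complex, and each column is 1 library. Colour gives log2(CPM + 0.5) minus the gene's mean over the 7 libraries, with the scale ending at 1.2 in either direction. CD103 negative replicates 1 and 2 (2012) are mostly red, with median deviations of 0.15 and 0.17.

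The first comparison asked which subunit genes differed in CpG CD103 high cells. With group and date in the model, it sets them in effect against CD103 negative replicates 1 and 2. In CpG CD103 high cells 14 of 78 members were called lower and 0 higher (edgeR quasi-likelihood test, adjusted p under 0.05), which is 17.9% called. Among all tested genes 26.3% were called, 14.5% higher and 11.8% lower. The median log2 fold change of the members was -0.22, against -0.01 for all tested genes, and 63 of 78 members had a negative value. Complex V had 5 of 16 lower with a median of -0.25, complex I had 6 of 36 lower with a median of -0.22, complex IV had 2 of 13 lower with a median of -0.12, and complex III had 1 of 8 lower with a median of -0.15. Complex II had 0 of 4 called, a median of -0.25 and 1 member with an unadjusted p under 0.05. All 16 tested genes of complex V had a negative value, from -0.56 to -0.09. Within complex I, the 7 nuclear core subunits, most of which carry redox centres or the quinone site, had a median of 0.03 with 1 called. The 29 tested accessory subunits had a median of -0.24 with 5 called.

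**Figure D3:**
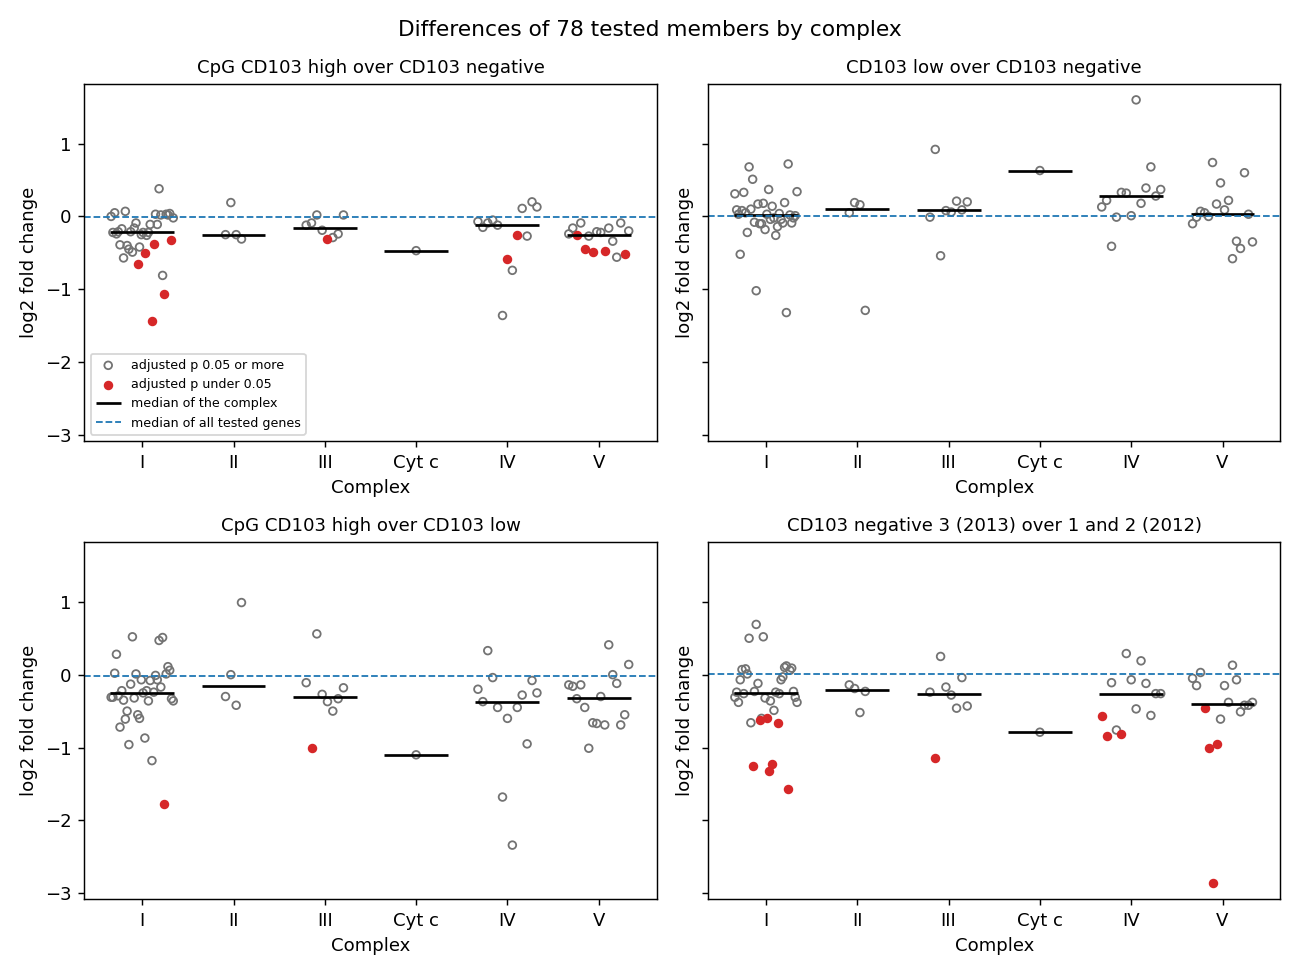
Log2 fold change of each of the 78 tested members (points) by complex in 4 comparisons, with the median of each complex (black) and of all tested genes (dashed). Filled points had an adjusted p under 0.05: 14 in CpG CD103 high over CD103 negative, 0 in CD103 low over CD103 negative, 2 in CpG CD103 high over CD103 low and 15 in the date comparison.

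Cox6c encodes a small subunit of complex IV, at chr15:35931976-35938246 of GRCm38. Its level was 42.2 and 51.3 CPM in CpG CD103 high, 65.4 and 70.3 CPM in CD103 low, and 68.3, 72.9 and 67.5 CPM in CD103 negative libraries. Both CpG CD103 high libraries lay below all 5 untreated ones, and the untreated libraries of both dates overlapped. Relative to CD103 negative cells the log2 fold change was -0.59 (SE 0.13, adjusted p = 0.00717), with means of 46.7 ± 6.48 CPM in CpG CD103 high (SD, n = 2) and 69.5 ± 2.91 CPM in CD103 negative (SD, n = 3). Of the 14 genes, Cox6c was the 1 also called without the date term. A part of its sequence, 13.9% of its windows of 50 bases, is shared with another gene.

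Uqcrc2, a core protein of complex III at chr7:120635189-120659523, had 185 and 172 CPM in CpG CD103 high, 198 and 179 CPM in CD103 low, and 215, 228 and 182 CPM in CD103 negative libraries. Here CpG CD103 high overlapped CD103 low and CD103 negative replicate 3. Relative to CD103 negative cells the log2 fold change was -0.31 (SE 0.09, adjusted p = 0.0309), and it rests on the libraries of 2012.

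The called genes of complex V encode parts of its stalks and membrane portion. Atp5a1 (-0.24) and Atp5b (-0.16), of the catalytic head, were not called (edgeR adjusted p = 0.0563 and 0.135). Atp5o, a stalk protein that holds the catalytic head, had 62.8 and 67.0 CPM in CpG CD103 high, 69.5 and 72.2 CPM in CD103 low, and 86.7, 99.2 and 69.4 CPM in CD103 negative libraries. CpG CD103 high lay below every untreated library, by a narrow margin from those of 2013 (log2 fold change -0.52, SE 0.11, adjusted p = 0.00719). Of the Atp5o windows, 19.1% are shared with another gene. Atp5e, the epsilon subunit of the rotor, had 85.4 and 80.0 CPM in CpG CD103 high, 56.3 and 55.4 CPM in CD103 low, and 112, 115 and 56.0 CPM in CD103 negative libraries. The CpG CD103 high libraries lay below those of CD103 negative of the same date and above all 3 of 2013 (log2 fold change -0.45, SE 0.10, adjusted p = 0.00771). Atp5g3, the most abundant subunit c gene, had 120 and 142 CPM in CpG CD103 high, 101 and 113 CPM in CD103 low, and 171, 197 and 94.9 CPM in CD103 negative libraries (log2 fold change -0.49, SE 0.11, adjusted p = 0.0121). It had the same order of groups and dates as Atp5e. Atp5j2, a membrane subunit, had a log2 fold change of -0.47 (adjusted p = 0.0425).

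In complex I, Ndufs6, an accessory subunit beside the iron-sulfur centres, had 8.43 and 7.40 CPM in CpG CD103 high, 8.85 and 9.42 CPM in CD103 low, and 13.0, 20.0 and 5.53 CPM in CD103 negative libraries. Replicates of CD103 negative spanned the values of both other groups (log2 fold change -1.06, SE 0.25, adjusted p = 0.0133). Ndufc1, an accessory subunit of the membrane arm, had 3.11 and 2.24 CPM in CpG CD103 high, 4.09 and 6.21 CPM in CD103 low, and 9.66, 4.96 and 6.17 CPM in CD103 negative libraries. Its log2 fold change of -1.44 (SE 0.43, adjusted p = 0.0324) rests on few counts, and 5.25% of its windows are shared with other genes. The other called subunits named here were Ndufc2 (-0.38) and Ndufb2 (-0.65) of the membrane arm and Ndufv2 (-0.32), a core iron-sulfur subunit. Cox7a2l had a log2 fold change of -0.26. The remaining 2 called members had log2 fold changes of -0.50 and -0.26. The member with the lowest adjusted p in complex II was Sdha, the flavoprotein subunit, with -0.25 (SE 0.09, adjusted p = 0.0639). Cycs had a log2 fold change of -0.47 (SE 0.23, adjusted p = 0.162).

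Against the 2 CD103 negative libraries of 2012, both CpG CD103 high libraries were below for 40 of 78 members (51.3%, against 31.8% of all tested genes) and above for 4 (5.13%, against 32.4%). Against all 3 CD103 negative libraries they were below for 19 (24.4%, against 22.7%) and above for 3 (3.85%, against 22.0%). Against all 5 untreated libraries they were below for 15 (19.2%, against 17.6%) and above for 3 (3.85%, against 16.3%). Once libraries of 2013 were added, the share of members that lay below was near that of all genes. The share that lay above was smaller than that of all genes in each case.

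Gene length moved with these differences. Tested members shorter than 1000 bases had a median of -0.24, and so had all 914 tested genes of that length, of which 48 were called higher and 198 lower. Tested genes of 1000 bases or more had a median of 0.01, and the 25 members of that length had a median of -0.21. A fit that corrected counts for GC content and length moved the members' median to -0.04, and 0 of the 14 calls were kept. That fit called Cox8a (0.28), Sdhb (0.29) and Uqcrq (0.30) higher and Atp5a1 (-0.35) lower, where 24% of all tested genes were called. The count also depended on single libraries, and the share of all tested genes called fell as well, from 26.3%. Leaving out CD103 negative replicate 2 gave 4 members (17% of all tested genes) and leaving out replicate 1 gave 6 (16.1%). Without CpG CD103 high replicate 2, which left 1 library in that group, Ndufa4 was higher by 0.46. Without the date term the count was 1 (14.6%).

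CD103 low was compared with CD103 negative in effect through CD103 negative replicate 3 alone, the only one of the same date. No member was called of 78, against 0.138% of all tested genes (0.0552% higher and 0.0829% lower), by edgeR's quasi-likelihood test. At an unadjusted p under 0.05 there were 13 members, against 797 of 10863 tested genes. DESeq2 called 1 member, Uqcr10 (0.91, adjusted p = 0.0472), and 0.304% of all tested genes. The median log2 fold change was 0.06, against 0.01 for all tested genes. Complex IV had a median of 0.28 with 11 of 13 values positive, complex I 0.02, complex II 0.11, complex III 0.09 and complex V 0.04. Standard errors of single members ran from 0.09 to 0.65 with a median of 0.16, and the 13 of complex IV had a median standard error of 0.18. Without the date term the median was -0.16, with 0 called. Without CD103 negative replicate 3, which drops the date term, 3 members were called higher and 19 lower, where 9.61% of all tested genes were called. The libraries of 2013 fitted on their own gave 3 members higher in CD103 low, Uqcr10 (0.91, adjusted p = 0.00174), Ndufa6 (0.67, adjusted p = 0.00768) and Atp5mpl (0.59, adjusted p = 0.0496). That fit gave 2 lower, Sdhd (-1.30, adjusted p = 0.0385) and Uqcrb (-0.55, adjusted p = 0.039), and called 1.71% of all tested genes.

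Uqcr10, a small subunit of complex III, had the lowest adjusted p of this comparison, at 0.072 with a log2 fold change of 0.92. It had 83.6 and 68.8 CPM in CpG CD103 high, 70.4 and 69.0 CPM in CD103 low, and 85.0, 77.4 and 36.8 CPM in CD103 negative libraries. CD103 negative replicate 3 stood below the other 6 libraries, which overlapped. The value therefore rests on 1 library.

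CpG CD103 high over CD103 low is the difference of the preceding contrasts. These rest in effect on different CD103 negative libraries, replicates 1 and 2 for CpG CD103 high and replicate 3 for CD103 low. In CpG CD103 high 2 members were called lower and 0 higher (2.56%, against 6.22% of all tested genes, 3.44% higher and 2.78% lower). Uqcr10 had a log2 fold change of -1.01 (SE 0.20, adjusted p = 0.0197) and Ndufs6 of -1.78 (SE 0.44, adjusted p = 0.0437). Levels of Uqcr10 in CpG CD103 high and CD103 low overlapped, as given above, and those of Ndufs6 were 8.43 and 7.40 CPM in CpG CD103 high and 8.85 and 9.42 CPM in CD103 low. The fitted differences rest on the date term: without it, Uqcr10 had 0.13 and neither gene was called. Without CD103 negative replicate 3, which is the only link between the dates, the log2 fold change of Uqcr10 was 0.15, and 13 members were called higher and 7 lower, where 15.5% of all tested genes were called. Without CD103 low replicate 1 or 2, edgeR called 0, with 18 and 22 members at an unadjusted p under 0.05, and without CD103 negative replicate 1 the only call was Ndufs6. The median of the members was -0.29 with the date term and 0.04 without it. Without it Ndufa6 was called lower (-1.11, adjusted p = 0.00797), among 5 lower and 1 higher, where 8.01% of all tested genes were called.

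The date comparison set CD103 negative replicate 3 (2013) against replicates 1 and 2 (2012), with the other groups adding to the estimate of the spread. In replicate 3, 15 of 78 members were called lower and 0 higher, or 19.2%, against 3.46% of all tested genes, 2.16% higher and 1.30% lower. The median log2 fold change of the members was -0.26, against 0.01 for all tested genes. Lower calls numbered 7 in complex I, 1 in complex III, 3 in complex IV and 4 in complex V, and complex II and cytochrome c had none. Complex V had the most negative median of the 5 complexes, -0.40, against -0.25 in complex I, -0.21 in complex II, and -0.26 in both complexes III and IV. In complex I all 7 called genes were accessory subunits, and the core subunits had a median of -0.07.

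Atp5g1, at chr11:96072793-96075694, differed most by date. It had 3.62 CPM in CD103 negative replicate 3, against 23.5 and 29.3 CPM in replicates 1 and 2, a log2 fold change of -2.86 (SE 0.34, adjusted p = 0.00393). The 2 other libraries of 2013, both CD103 low, had 7.27 and 4.83 CPM, and the 2 other libraries of 2012, both CpG CD103 high, had 24.0 and 19.7 CPM. The libraries thus fell by date with no overlap, although only CD103 negative has libraries of both dates. Part of the Atp5g1 sequence, 11.6% of its windows, is shared with other genes, 366 in all. Atp5g3 of the same subunit had a log2 fold change of -0.95 by date (SE 0.15, adjusted p = 0.0109), and no window of it was shared. Atp5e had -1.01 (SE 0.13, adjusted p = 0.00449).

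Ndufb8, a membrane-arm subunit of complex I, had 30.0 CPM in CD103 negative replicate 3, against 61.9 and 77.6 CPM in replicates 1 and 2 (log2 fold change -1.22, SE 0.19, adjusted p = 0.0124). CD103 low, also of 2013, had 32.9 and 33.3 CPM, and CpG CD103 high, of 2012, had 65.9 and 54.0 CPM. It separated by date in the same way as Atp5g1. Cox5a, a matrix-side subunit of complex IV, had 65.6 CPM in CD103 negative replicate 3, against 124 and 110 CPM in replicates 1 and 2 (log2 fold change -0.84, SE 0.13, adjusted p = 0.00978). Its values were 75.2 and 77.5 CPM in CD103 low and 107 and 104 CPM in CpG CD103 high, again apart by date. Uqcr10 had -1.14 by date (SE 0.16, adjusted p = 0.00775), but its CD103 low libraries did not follow replicate 3. The other named genes were Ndufb6 (-1.32), Ndufs6 (-1.57), Ndufc2 (-0.66) and Ndufb5 (-0.60) of complex I and Cox6b1 (-0.81) and Cox4i1 (-0.57) of complex IV. The 3 remaining calls ran from -1.26 to -0.46.

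**Figure D4:**
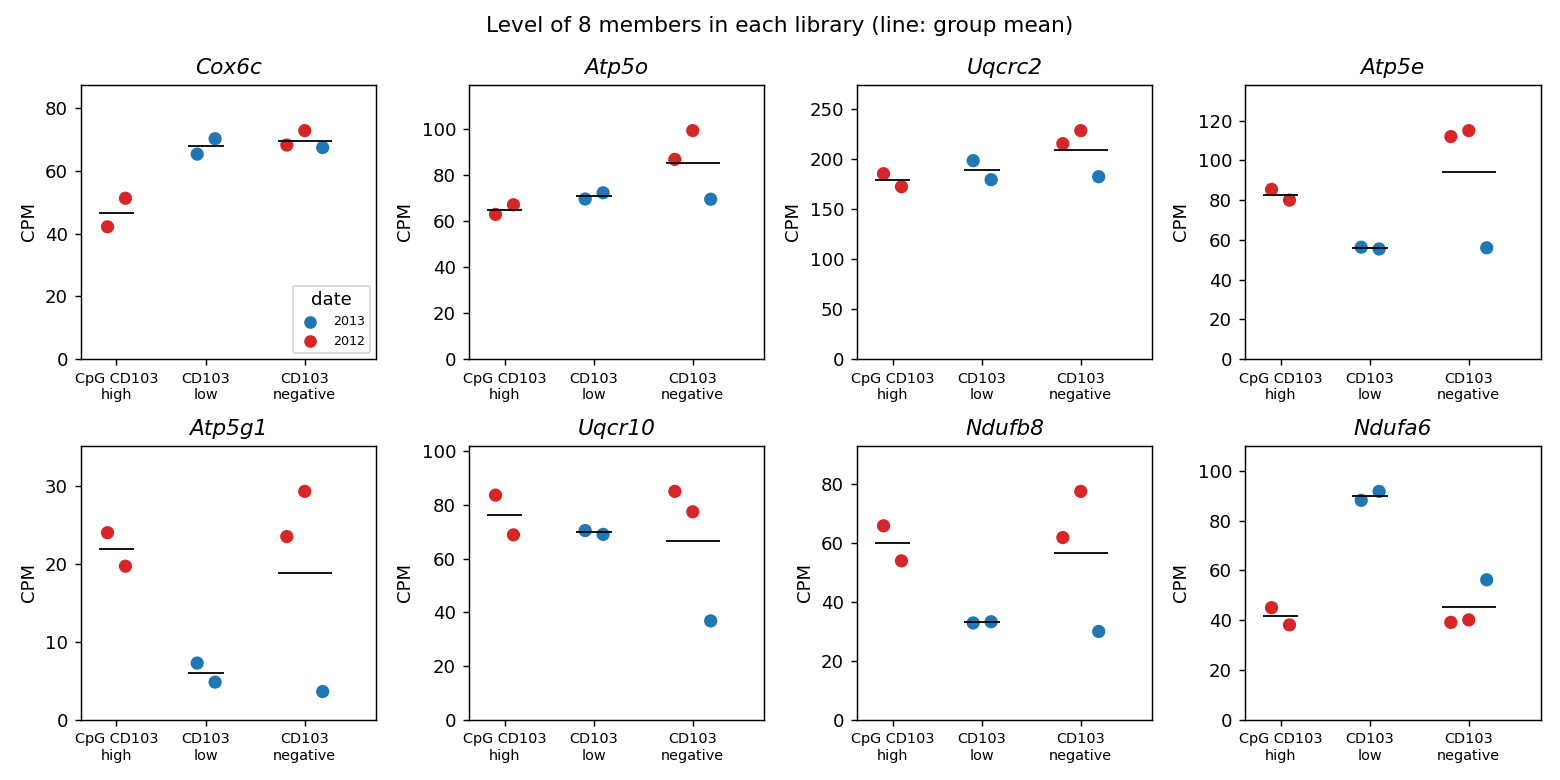
CPM of 8 members in each library (points, coloured by the year on the label), with the mean of each group (line). Cox6c was lower in both CpG CD103 high libraries (42.2 and 51.3 CPM), whereas Atp5g1 and Ndufb8 divide by year over all libraries. Only CD103 negative holds both years.

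Over all libraries, 22 of 78 members were lower in each of the 3 libraries of 2013 than in each of the 4 of 2012 (28.2%, against 7.57% of all tested genes). For 6 members the libraries of 2013 were all higher (7.69%, against 7.76%). These 6, chosen after their values were seen, were Ndufa3, Ndufa6, Ndufb3, Cox6b2, Cox7a2l and Atp5c1. Ndufa6, an accessory subunit of complex I, had 88.1 and 91.7 CPM in CD103 low and 56.2 CPM in CD103 negative replicate 3, against 45.0 and 38.1 CPM in CpG CD103 high and 39.1 and 40.1 CPM in CD103 negative replicates 1 and 2. CD103 low was highest. With all 7 libraries and the date term, edgeR called it in none of the 4 comparisons, but at least 3 other fits did, as given with those fits.

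All 15 genes called by date were shorter than 1000 bases. The 53 tested members of that length had a median of -0.38 by date, and all tested genes of that length had -0.24. The 25 longer members had a median of -0.23 with none called by edgeR, 7 at an unadjusted p under 0.05, and all longer genes had 0.03. Correction for GC content and length moved the members' median to -0.14 and kept 7 of the 15 calls: Atp5g1 (-2.63), Ndufb8 (-0.96), Uqcr10 (-0.92), Atp5e (-0.76), Atp5g3 (-0.71), Cox5a (-0.57) and Cox6b1 (-0.56). It added Ndufa6, higher by 0.72, and called 2.13% of all tested genes. The 6 of these 7 other than Cox6b1 were called in all 13 alternatives run. Leaving out CD103 negative replicate 1 gave 7 calls, where 0.862% of all tested genes were called, and leaving out replicate 2 gave 8 (1.15%).

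**Figure D5:**
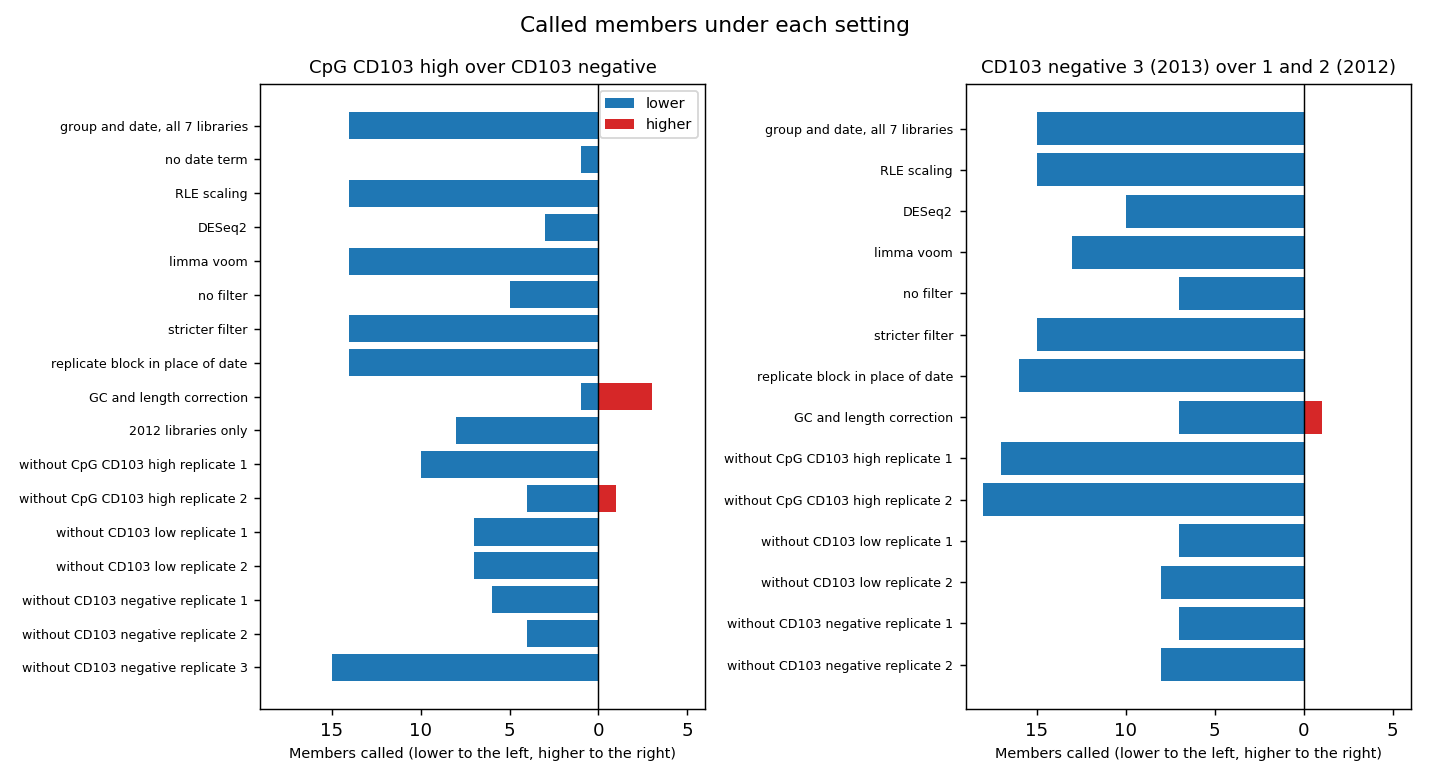
Number of members called lower (left of 0) or higher (right of 0) under each setting. For CpG CD103 high over CD103 negative the count ran from 1 to 15, and for the date comparison from 7 to 18.

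Genes around the respiratory chain were described by lists. Of 44 tested assembly factors, which build the complexes but are not part of them, 7 were called lower and 1 higher in CpG CD103 high than in CD103 negative cells. For this list and those below, 11.8% of all tested genes were lower and 14.5% higher in the same comparison. Ndufaf7 had a log2 fold change of -0.83 (adjusted p = 0.00419), Ndufaf5 of -0.84 (adjusted p = 0.0132) and Coa5 of 0.35 (adjusted p = 0.0101). By date, 3 were lower, Uqcc2 (-1.07), Coa6 (-1.59) and Cox17 (-0.81), and Coa6 was also lower in CpG CD103 high than in CD103 low (-1.60, adjusted p = 0.0477). Of 14 tricarboxylic acid cycle genes, 5 were lower and 0 higher in CpG CD103 high than in CD103 negative cells. Idh3a, of NAD-dependent isocitrate dehydrogenase, had 46.4 and 40.3 CPM in CpG CD103 high, a mean of 54.1 ± 5.80 CPM in CD103 low (SD, n = 2), and 64.3, 71.1 and 63.2 CPM in CD103 negative libraries. The groups did not overlap (log2 fold change -0.64, adjusted p = 0.00582). Idh2 had -0.56 and Suclg1 -0.42, and Mdh2 was also called lower than in CD103 low (-0.54, adjusted p = 0.0477). No gene of this cycle was called by date, with 1 at an unadjusted p under 0.05.

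Of 17 regulators of mitochondrial genes that passed the filter, Hif1a and Esrra were called higher and Tefm and Tfam lower in CpG CD103 high cells, leaving Ppargc1b aside. Ppargc1b, a coactivator of oxidative metabolism genes, had 9.54 and 7.17 CPM in CpG CD103 high, 0 and 0.230 CPM in CD103 low, and 0, 0.216 and 0.426 CPM in CD103 negative libraries. These were 75 counts over 2 CpG CD103 high libraries and 4 over 5 untreated ones, a ratio of 47.3 with an exact 95% interval for counting error of 17.7 to 178. It passed the filter only through the CpG CD103 high libraries, so no test is given for it. Hif1a, a factor that favours glycolysis, had 194 and 153 CPM in CpG CD103 high, 129 and 134 CPM in CD103 low, and 107, 117 and 127 CPM in CD103 negative libraries (log2 fold change 0.63, adjusted p = 0.00417). Esrra, the receptor that Ppargc1b protein partners, had a log2 fold change of 0.54 (adjusted p = 0.00969). Tefm (-0.81) and Tfam (-0.49), which act on mitochondrial DNA and its transcription, were lower. None of the 17 was called by date by edgeR, with 3 at an unadjusted p under 0.05.

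Carriers and other electron-entry genes had 2 of 23 called lower in CpG CD103 high than in CD103 negative cells. They were Slc25a5 (-0.46, adjusted p = 0.00243), which exchanges ADP for ATP, and Slc25a3 (-0.38, adjusted p = 0.0154), which carries phosphate. Ucp2, an uncoupling-protein homologue, was lower in CpG CD103 high than in CD103 low (-0.44, adjusted p = 0.0477). Subunit genes on mitochondrial DNA had 7 of 13 called lower in CpG CD103 high than in CD103 negative cells. Among those called were ND1 (-0.28) and ND2 (-0.37), with means of 4833 and 2502 CPM over all libraries (edgeR adjusted p = 0.044 and 0.0462). The other called genes were ND3, COX2, COX3, ATP6 and ATP8, with means of 3.23 to 46.1 CPM, against 11535 CPM for COX1. Their low levels are uncertain too, since the counting of reads that map to several places is not given. For 6 of the 13, those averaging under 1000 CPM, CD103 negative replicate 1 stood apart, with a sum of 422 CPM against 49.0 to 88.2 CPM in the other libraries. Without that library 1 was called lower, and without CpG CD103 high replicate 2 edgeR called 0 of 13, with 7 at an unadjusted p under 0.05. The other 7 summed to 30318 and 25709 CPM in CpG CD103 high, 34885 and 36199 CPM in CD103 low, and 31263, 30131 and 28949 CPM in CD103 negative libraries. COX1 (-0.45, adjusted p = 0.037) and ND1 (-0.57, adjusted p = 0.0429) were called lower in CpG CD103 high than in CD103 low.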

How the data were processed

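Each of 7 libraries has a deposited file of whole-number read counts by gene, without normalization, per the file headers. CASAVA, Subread 1.4.6 and featureCounts and the build mm10 are named, without roles, per the submitters' processing notes; the sources used here do not give strand, annotation release or the treatment of multiply mapping reads. A table of the whole series with 7 columns matching no label was not used.

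Entrez identifiers were matched to RefSeq symbols (25275 of 27179, 93.0%). Of 109 symbols that fit the rule, 19 were not protein-coding, and Ndufb1 had no row under its identifier. Differences were tested over all 10863 genes that passed filterByExpr with edgeR 4.0.16 in R 4.3.3 (quasi-likelihood test, TMM, group and date as additive terms, 3 residual degrees of freedom, Benjamini-Hochberg adjustment, called under 0.05). CD103 negative replicate 3 alone links the dates. The procedure was tested on simulated data. Shared 50-base windows and GC content were read from GENCODE M21 transcripts (GRCm38), and gene coordinates from RefSeq (GRCm38.p6).

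Alternatives were no date term, RLE scaling, DESeq2 1.42.0, limma 3.58.1 (voom), no filter, a stricter filter (over 5 CPM in at least 2 libraries), a replicate block, a GC and length correction (natural splines, 5 degrees of freedom), single dates and leaving out each library. The members, gene lists and tests were chosen with earlier results of these data known, and motif letters were set after a search with longer forms. Named were Cox6c, Uqcrc2, up to 12 called members per comparison by adjusted p, the most abundant and lowest-p member of each complex, paralogue groups, and up to 3 called genes per other list. Every called gene of mitochondrial DNA was also named.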

Additional observations from a re-analysis of the deposited data

How the results depend on the processing

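At totals of 4474211 to 4629181 counts and 2 or 3 libraries a group, members under a few CPM could not be resolved, and the dates are linked by 1 library. RLE scaling and the stricter filter kept all 31 member calls. For CpG CD103 high over CD103 negative, 14 members were called. The number was 1 without the date term (median -0.14, against -0.22), 3 by DESeq2, 5 with no filter, 4 with GC and length correction (median -0.04) and 8 with the 2012 libraries only. Of all tested genes, these fits called 14.6%, 13.4%, 13.5%, 24% and 21.9%, in that order, against 26.3%. Leaving out 1 library gave 4 to 15 (median -0.27 to -0.16). For CD103 low over CD103 negative, 0 were called, against 1 by DESeq2 and 0 to 22 when 1 CD103 negative library was left out. Of all tested genes, DESeq2 called 0.304% and the fits without 1 CD103 negative library 0.102% to 9.61%, against 0.138%. The members' median of 0.06 became -0.16 without the date term, and -0.26 to 0.09 with 1 library left out. For CpG CD103 high over CD103 low, 2 were called, against 6 without the date term (median 0.04, against -0.29), 1 by DESeq2, 1 by voom, 0 with no filter and 1 with GC and length correction (median -0.03). Of all tested genes, these fits called 8.01%, 3.59%, 6.19%, 1.6% and 4.64%, in that order, against 6.22%. Leaving out 1 library gave 0 to 20 (median -0.40 to 0.06). By date, 15 were called, against 10 by DESeq2, 7 with no filter, 8 with GC and length correction (median -0.14) and 7 to 18 with 1 library left out. Of all tested genes, 1.91% were called by date with DESeq2, 0.626% with no filter and 2.13% with GC and length correction, against 3.46%. Uqcr10 in CpG CD103 high over CD103 low was -1.01, became 0.13 without the date term and ran from -1.16 to 0.15 with 1 library left out, the last without CD103 negative replicate 3. The cause was not tested; the fits with fewer libraries have fewer degrees of freedom.

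The replicate numbers were not shown to pair the libraries: the correlation of deviations for replicate 1 was 0.168 between CpG CD103 high and CD103 negative, -0.00641 between CpG CD103 high and CD103 low, and 0.00245 between CD103 low and CD103 negative. With a replicate block in place of the date, 14 members were called in CpG CD103 high over CD103 negative, all lower (27.7% of all tested genes called). In CD103 low over CD103 negative there were 22, 3 higher and 19 lower (median -0.23; 10.8% of all genes), and in CpG CD103 high over CD103 low 20, 12 higher and 8 lower (median 0.03, and 0.13 for Uqcr10; 16.3%). For replicate 3 against the other CD103 negative libraries there were 16, all lower (4.63%).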
